A study of Mus musculus with 7 samples.

Results

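The regions described here are stretches of open chromatin that overlap the annotated start of a gene on an autosome (chromosomes 1 to 19), taken from an ATAC-seq study of adipose tissue macrophages in mice on 3 diets. They number 301 of the 5898 regions in the 7 deposited tables of the series, and each is assigned to a different gene. In 296 of them the region runs across the start, and in 5 it holds a whole short gene (Gm23363, Mir29b-2, Mir3095, Mir6932 and Mir6977), as the deposited annotation records it. Members were taken by this annotation alone, not by any measured value. All animals were adult male C57Bl/6J mice. The HFD-RD group (2 libraries) had 11 weeks of a high-fat diet with 60% lipid and then 9 weeks of a regular diet with 10% lipid, on which the mice lost weight. The HFD group (3 libraries) had the high-fat diet for 11 weeks and was then sampled, and the RD-RD group (2 libraries) had the regular diet for 20 weeks. HFD therefore differs from both other groups in time on the study as well as in diet, and the effects of diet and of time or age cannot be told apart in its comparisons.

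ATAC-seq reads out where the Tn5 transposase can insert sequencing adapters, so a high read count over a region marks DNA free of tightly packed nucleosomes. The start of an active gene is usually kept open so that RNA polymerase and its partner factors can assemble there. Many mammalian starts lie in CpG islands, stretches rich in the dinucleotide CG that stay unmethylated and open in most cell types, whereas starts poor in CG tend to belong to genes used by few cell types. Macrophages of adipose tissue include long-lived resident cells that clear debris and dying cells, and in obese fat also cells loaded with lipid that carry lysosomal and fatty acid handling genes.

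The library titles and diet labels give the same groups and were used for grouping, while the source names of all 7 libraries name a different diet than these do. Nothing in the labels says that libraries of 1 group came from separate animals, so the p-values measure only the spread between these libraries. None of the 16 defining macrophage markers, such as Csf1r and Adgre1, has a region in the deposited tables, so the labelled cell type could not be checked against them. The reads within all deposited regions numbered 889422 to 2807495 per library, and the median gene-start region held 73 and 146 reads in the HFD-RD libraries, 393, 212 and 223 in HFD, and 244 and 183 in RD-RD. In nuclei pooled within a library, fewer cells with an open start and less opening per cell cannot be told apart.

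Promoter sequences from RefSeq (GRCm38.p6), each running from 250 bases before to 50 bases after the gene start, matched 200 of the 301 regions. The windows of 7 genes are shown because these genes carry the main patterns: Cd209f and Timd4, resident macrophage genes with CG-poor starts that lost accessibility; Prima1, Klf15 and Tbx20, CG-rich starts that lost accessibility; and Gpnmb and Ctsk, lipid-associated macrophage genes that gained it. They lie at chr8:4105715-4106014, minus strand, chr11:46810549-46810848, plus strand, chr12:103242097-103242396, minus strand, chr6:90462326-90462625, plus strand, chr9:24774254-24774553, minus strand, chr6:49036268-49036567, plus strand and chr3:95498960-95499259, plus strand. Each is written 5′ to 3′ on the gene's strand, with every CG in capitals.
Cd209f: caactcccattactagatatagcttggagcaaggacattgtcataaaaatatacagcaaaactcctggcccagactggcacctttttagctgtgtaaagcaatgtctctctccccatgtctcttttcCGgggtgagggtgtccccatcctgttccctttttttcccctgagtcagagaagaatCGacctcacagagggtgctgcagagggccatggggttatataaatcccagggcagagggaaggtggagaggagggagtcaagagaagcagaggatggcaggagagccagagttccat
Timd4: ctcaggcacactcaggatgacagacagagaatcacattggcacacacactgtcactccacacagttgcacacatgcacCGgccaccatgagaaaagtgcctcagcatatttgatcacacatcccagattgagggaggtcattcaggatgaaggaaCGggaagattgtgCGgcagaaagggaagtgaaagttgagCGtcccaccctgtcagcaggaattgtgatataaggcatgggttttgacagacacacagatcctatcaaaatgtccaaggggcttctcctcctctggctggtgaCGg
Prima1: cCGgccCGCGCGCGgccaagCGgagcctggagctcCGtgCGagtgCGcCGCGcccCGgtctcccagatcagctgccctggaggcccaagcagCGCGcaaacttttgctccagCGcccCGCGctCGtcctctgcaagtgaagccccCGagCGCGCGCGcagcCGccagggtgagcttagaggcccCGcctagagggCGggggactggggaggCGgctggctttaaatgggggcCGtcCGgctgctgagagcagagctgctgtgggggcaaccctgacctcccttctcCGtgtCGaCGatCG
Klf15: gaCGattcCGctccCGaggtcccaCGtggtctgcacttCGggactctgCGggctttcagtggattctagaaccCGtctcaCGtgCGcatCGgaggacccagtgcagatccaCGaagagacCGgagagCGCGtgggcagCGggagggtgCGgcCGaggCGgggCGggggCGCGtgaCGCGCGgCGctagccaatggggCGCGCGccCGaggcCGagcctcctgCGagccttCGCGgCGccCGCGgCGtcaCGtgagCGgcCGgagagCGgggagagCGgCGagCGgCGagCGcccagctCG
Tbx20: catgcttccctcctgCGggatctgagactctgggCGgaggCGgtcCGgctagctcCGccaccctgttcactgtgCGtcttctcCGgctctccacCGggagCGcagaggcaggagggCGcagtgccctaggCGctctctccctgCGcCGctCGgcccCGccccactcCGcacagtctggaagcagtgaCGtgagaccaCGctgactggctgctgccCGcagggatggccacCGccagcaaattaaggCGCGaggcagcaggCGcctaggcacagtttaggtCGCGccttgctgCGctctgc
Gpnmb: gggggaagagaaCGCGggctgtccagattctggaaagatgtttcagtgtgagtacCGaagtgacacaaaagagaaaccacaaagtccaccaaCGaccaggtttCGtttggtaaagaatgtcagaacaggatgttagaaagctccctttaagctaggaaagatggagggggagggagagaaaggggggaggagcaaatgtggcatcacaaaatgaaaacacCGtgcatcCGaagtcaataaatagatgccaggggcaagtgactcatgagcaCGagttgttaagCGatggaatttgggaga
Ctsk: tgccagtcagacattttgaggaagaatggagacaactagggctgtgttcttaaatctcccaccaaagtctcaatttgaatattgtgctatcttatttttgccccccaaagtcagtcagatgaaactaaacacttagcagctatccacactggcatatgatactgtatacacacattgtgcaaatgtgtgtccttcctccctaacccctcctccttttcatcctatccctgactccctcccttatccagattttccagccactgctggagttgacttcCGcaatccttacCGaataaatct

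The windows differ in CG content as written above. Cd209f and Ctsk have 2 CG each in 300 bases, Timd4 has 5 and Gpnmb 9, while Tbx20 has 26, Prima1 33 and Klf15 47. The GC box letters GGGCGGGG, searched on both strands like every motif here, occur in the Prima1, Klf15 and Tbx20 windows and in none of the other 4. The AP-1 letters TGANTCA occur in Cd209f and Gpnmb, the RUNX letters TGTGGTT in Gpnmb, and the TATA box letters TATAAA in Cd209f. Over all 32851 RefSeq promoter windows of mouse genes the shares were 17.6% for the GC box, 7.81% for AP-1, 5.27% for RUNX and 13.6% for the TATA box. Such matches describe the letters of these windows only.

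Setting HFD-RD against RD-RD addresses whether macrophages of mice that became lean again look like those of mice kept on the regular diet. Accessibility over gene starts was mostly lower in HFD-RD. With limma on log2 of the normalized count and Benjamini–Hochberg adjustment over all 5898 regions at 0.05, 270 of 301 gene starts (89.7%) were lower and 25 (8.31%) higher, and 6 were not called. Over all deposited regions the shares ran the other way, with 32.4% lower and 64.8% higher. The median log2 change was -1.20 over gene starts and 1.03 over all regions. Regions elsewhere near genes resembled the whole set: 28.3% of the 569 autosomal regions within 10 kb upstream of a gene and 25.7% of the 2058 inside a gene were lower. The authors chose the deposited regions for differences between these same libraries, so a high share of calls follows from that choice, and the direction of the calls is what the counts describe.

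The same direction held in the other comparison with RD-RD, and to a smaller extent between the high-fat groups. In HFD against RD-RD, which asks what differs in mice still on the high-fat diet, 226 gene starts were lower, 28 higher and 47 not called, where the whole set had 29.0% lower and 59.2% higher. The median log2 change there was -0.75 over gene starts and 0.75 over all regions. In HFD-RD against HFD, which asks what differs once the diet is changed back, 110 gene starts were lower, 4 higher and 187 not called, against 12.8% lower and 10.2% higher over the whole set, with medians of -0.49 and -0.05. The comparisons with RD-RD share the same RD-RD libraries, and each HFD-RD comparison shares the HFD-RD libraries. This last comparison leaned on single libraries: without HFD-RD replicate 1 its calls were 12 lower and 0 higher, without HFD replicate 1 they were 50 lower and 1 higher, without HFD replicate 2 they were 74 lower and 3 higher, without HFD replicate 3 they were 59 lower and 1 higher, and without HFD-RD replicate 2 they were 89 lower and 6 higher.

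**Figure D1:**
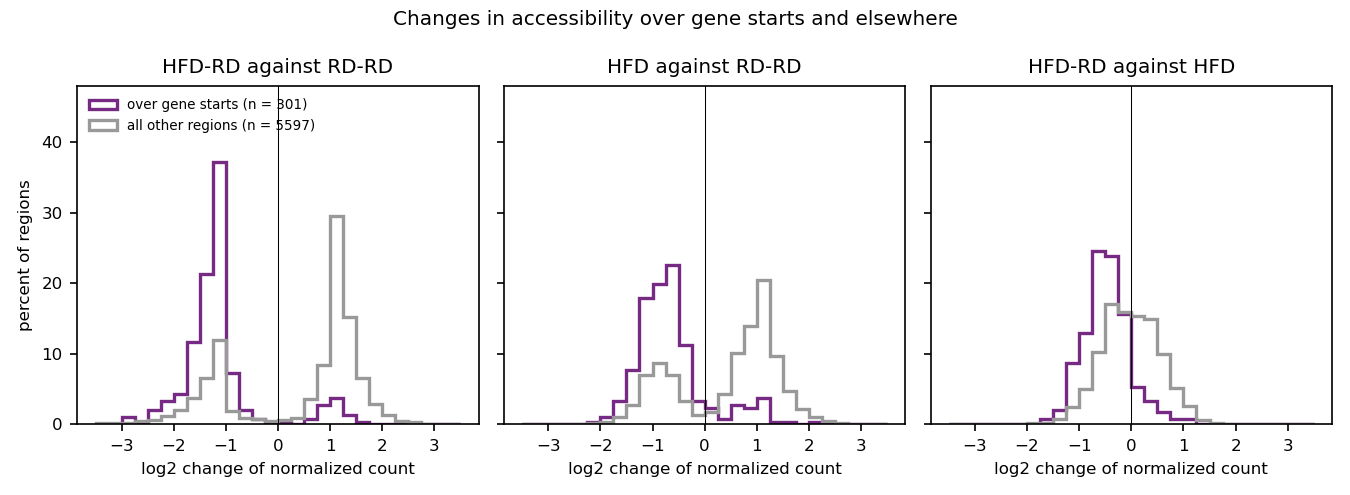
Log2 change of the normalized count (x axis) in each of the 3 comparisons, as percent of regions per bin (y axis), for the 301 regions over gene starts (purple) and all 5597 other deposited regions (grey). Gene starts pile up below 0 in both comparisons with RD-RD (medians -1.20 and -0.75), where most other regions lie above 0.

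Gene starts also took a smaller part of the reads in the libraries with a high-fat history. They held 3.96% and 4.85% of the reads within deposited regions in HFD-RD, 6.71%, 6.81% and 6.68% in HFD, and 10.7% and 9.79% in RD-RD. The median gene-start region had 133 and 135 normalized counts in HFD-RD, 177, 174 and 192 in HFD, and 304 and 264 in RD-RD. The groups did not overlap in either gene-start measure, with HFD-RD lowest and HFD between the others. The median of all regions was 129 and 118 in HFD-RD, 122, 115 and 129.8 in HFD, and 94.0 and 102 in RD-RD. Both gene-start measures rest on the same counts as the calls above. The denominator of the read shares holds only regions chosen for a difference, so these shares are not shares of the whole library.

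The order HFD-RD below HFD below RD-RD held for the group means of 241 of 301 gene starts. In 21 HFD was lowest and RD-RD highest, in 13 RD-RD was lowest and HFD highest, and in another 13 RD-RD was lowest and HFD-RD highest. In 12 HFD-RD was lowest and HFD highest, and in 1 (Slc39a4) HFD was lowest and HFD-RD highest. The orders are not given here for all deposited regions, so these counts do not set gene starts apart from other regions. The libraries of HFD-RD lay all below those of RD-RD at 272 gene starts and all above at 26, beside 32.7% all below and 65.4% all above over the whole set. For HFD against RD-RD these counts were 242 below and 29 above (31.6% and 61.0% over the whole set). For HFD-RD against HFD they were 201 below and 12 above (31.6% and 27.9%), with 88 overlapping.

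By calls in the 3 comparisons together, 154 gene starts were lower than RD-RD in both HFD-RD and HFD with no call between these groups. At another 69 HFD-RD was also called lower than HFD. At 35 HFD-RD was lower than both other groups while HFD was not called against RD-RD. At 22 both HFD-RD and HFD were higher than RD-RD with no call between them. A missing call does not show that the values were equal. The same joint classes are not given here for all deposited regions, so these counts do not set gene starts apart from other regions. Each class also depends on the calls between HFD-RD and HFD. Those calls leaned on single libraries, as described above, so the split between the classes does too.

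Set against RD-RD, the 10 largest decreases in HFD-RD lay at Cd209f, Prima1, Cd209d, Sema6a, 4930505A04Rik, Timd4, Nptx2, Klf15, Fgf5 and Kcnd3. Cd209f, Cd209d and Timd4 are on the resident macrophage list and are described with it. Prima1, which encodes the membrane anchor of acetylcholinesterase, had 78.4 and 83.3 normalized counts in HFD-RD, 221, 233 and 278 in HFD, and 600.4 and 560.2 in RD-RD at chr12:103241779-103243209. Sema6a, a transmembrane semaphorin that guides cell migration, had 56.5 and 58.3 normalized counts in HFD-RD, 116, 90.5 and 94.6 in HFD, and 392 and 387 in RD-RD at chr18:47368658-47369270. Klf15, a Krüppel-like transcription factor tied to glucose and lipid metabolism, had 111 and 105 normalized counts in HFD-RD, 157, 158 and 201 in HFD, and 503 and 576 in RD-RD at chr6:90461954-90463853. All 3 were lowest in HFD-RD, intermediate in HFD and highest in RD-RD, with no overlap between groups. The log2 changes in HFD-RD against RD-RD were -2.83 ± 0.204 (SE) for Prima1, -2.74 ± 0.204 for Sema6a and -2.31 ± 0.212 for Klf15, with adjusted p of 1.35e-05, 1.49e-05 and 3.15e-05 by limma. Among the others of the 10, changes of -2.49 at 4930505A04Rik, -2.40 at the neuronal pentraxin gene Nptx2, -2.31 at Fgf5 (a fibroblast growth factor) and -2.30 at Kcnd3 (a voltage-gated potassium channel subunit) were called lower. Relative to HFD, Prima1 was lower in HFD-RD by limma (log2 change -1.57 ± 0.186, adjusted p = 0.00371) with any 1 library left out, while the calls of Sema6a, Klf15, Kcnd3, Nptx2, Fgf5 and 4930505A04Rik were each lost without at least 1 library. Of these 6, 4930505A04Rik lost its call without HFD-RD replicate 2 (log2 change -0.63) and Kcnd3 without HFD-RD replicate 1 (-1.09). Fgf5 stood at -0.41 without HFD-RD replicate 1, and Klf15 lost its call without any 1 of the 5 libraries of that comparison. Sema6a lost its call without HFD-RD replicate 1 (-0.76) or HFD replicate 1 (-0.68), and Nptx2 without HFD-RD replicate 1 (-1.22).

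**Figure D2:**
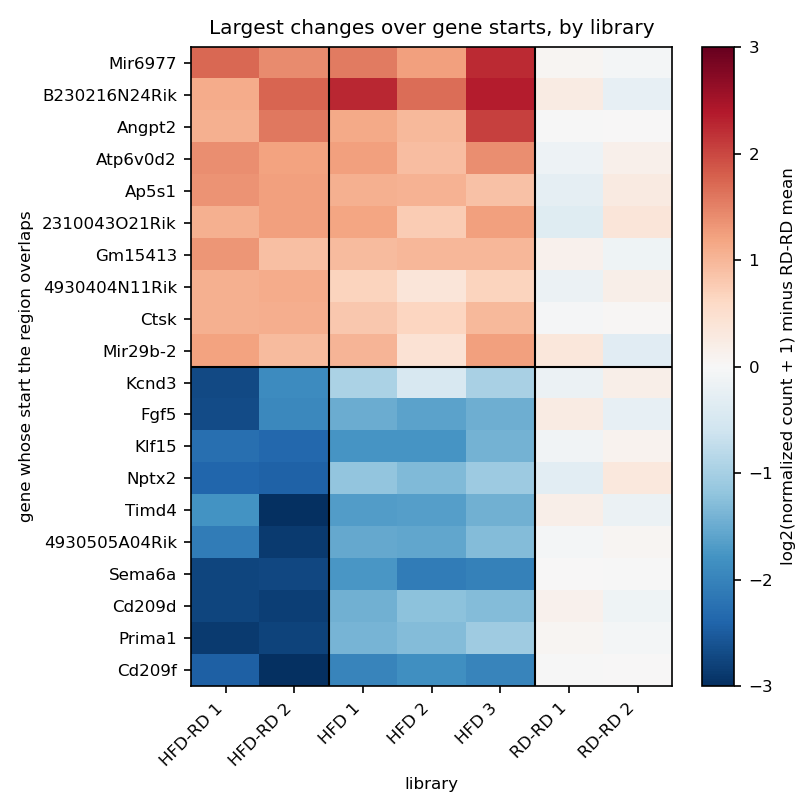
The 10 largest increases and 10 largest decreases of gene-start accessibility in HFD-RD against RD-RD, 1 row per gene and 1 column per library; color gives log2(normalized count + 1) minus the RD-RD mean. HFD libraries share the sign of HFD-RD in all 20 rows, and the decreases are deeper in HFD-RD, as for Prima1 (-2.83 in HFD-RD and -1.25 in HFD).

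All 6 gene-start regions of resident macrophage genes lost accessibility, while regions of this list away from starts moved both ways. The list holds 34 genes, of which 21 have any deposited region and 6 have one over their start: Cd209f, Cd209d and Cd209a (C-type lectins that bind glycans), Timd4 (a receptor for phosphatidylserine on dying cells), Lyve1 (a hyaluronan receptor) and Cbr2 (a carbonyl reductase). All 6 were lower in both HFD-RD and HFD than in RD-RD by limma, with median log2 changes of -2.13 and -1.25. Over all gene starts 89.7% and 75.1% were lower, with medians of -1.20 and -0.75. Over all 34 deposited regions of the list, starts included, 23 were lower and 10 higher in HFD-RD against RD-RD, and 20 lower and 9 higher in HFD against RD-RD, beside 32.4% and 29.0% lower over all regions. Cd209f, at chr8:4105385-4106121, had 38.3 and 20.4 normalized counts in HFD-RD, 53.3, 59.2 and 53.3 in HFD, and 214 and 215 in RD-RD. Timd4, at chr11:46810322-46810879, had 41.9 and 16.7 normalized counts in HFD-RD, 45.2, 46.1 and 53.3 in HFD, and 168 and 129.6 in RD-RD. Lyve1, at chr7:110862623-110863479, had 106 and 135 normalized counts in HFD-RD, 257, 233 and 251 in HFD, and 445 and 408 in RD-RD. The 3 groups did not overlap at any of these 3 starts, and RD-RD was highest at each. The log2 change in HFD-RD against RD-RD was -2.89 ± 0.267 (SE) for Cd209f, -2.43 ± 0.343 for Timd4 and -1.82 ± 0.206 for Lyve1, with adjusted p of 3.15e-05, 0.000167 and 7.08e-05. The changes were -2.78 for Cd209d, -1.82 for Cd209a and -1.26 for Cbr2. All these calls against RD-RD held with each library left out in turn. The Cd209 genes are close copies of each other, and how the authors treated reads that map to several places is not given in the sources used here, so their counts may share reads.

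Between HFD-RD and HFD, where 36.5% of all gene starts and 12.8% of all regions were lower, 4 of these 6 starts were lower in HFD-RD: Cd209d (log2 change -1.46 ± 0.184, adjusted p = 0.00371 by limma), Lyve1 (-1.04 ± 0.188, 0.00781), Cd209f (-0.96 ± 0.244, 0.0201) and Cd209a (-0.64 ± 0.175, 0.0266). Timd4 (-0.83) and Cbr2 (-0.15) were not called. The Cd209d call held with each library left out in turn. That of Lyve1 was lost without HFD-RD replicate 1 (-0.86), that of Cd209f without HFD-RD replicate 2 (-0.52), HFD replicate 1 (-0.98) or HFD replicate 2 (-0.91), and that of Cd209a without any 1 of the 5 libraries. Siglech and Cd209a, the 2 of 13 dendritic cell markers with a gene-start region, moved the same way: Siglech, a lectin of plasmacytoid dendritic cells, had 148 and 112 normalized counts in HFD-RD, 154, 125 and 185 in HFD, and 465 and 382 in RD-RD. Only 5 of the 13 have any deposited region. The summed level of the 6 deposited regions of dendritic cell markers was 970.2 to 1162 normalized counts in HFD-RD, 999 to 1112 in HFD and 2174 to 2392 in RD-RD. Of these regions 5 were lower and 1 higher in HFD-RD against RD-RD, beside 32.4% and 64.8% over all regions. The part of dendritic cells in these results was not tested.

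The 4 lipid-associated macrophage genes with a gene-start region (of 33 listed) all gained accessibility, in HFD-RD and in HFD alike. They were Gpnmb (a transmembrane glycoprotein of lipid-laden macrophages), Ctsk (the lysosomal protease cathepsin K), Atp6v0d2 (a subunit of the proton pump that acidifies lysosomes) and Fabp4 (a carrier of fatty acids). Their median log2 change was 1.06 in HFD-RD and 1.04 in HFD against RD-RD. Over all gene starts 8.31% were higher in HFD-RD and 9.30% in HFD, and over all regions 64.8% and 59.2%. Of the 47 deposited regions of the list, starts included, 47 were higher in HFD-RD and 46 in HFD, and 0 were lower in either. Ctsk, at chr3:95497050-95500165, had 1703 and 1725 normalized counts in HFD-RD, 1409, 1270.4 and 1576 in HFD, and 793 and 824 in RD-RD. Gpnmb, at chr6:49035485-49038034, had 1375 and 1237 normalized counts in HFD-RD, 1172, 1069.6 and 1437 in HFD, and 629 and 634 in RD-RD. Atp6v0d2, at chr4:19920687-19923103, had 930.1 and 812 normalized counts in HFD-RD, 828, 676 and 936 in HFD, and 315 and 395 in RD-RD. At all 3 the RD-RD libraries lay below every other library, and HFD-RD and HFD overlapped at Gpnmb and Atp6v0d2 but not at Ctsk. The log2 change in HFD-RD against RD-RD was 1.08 ± 0.200 (SE) for Ctsk, 1.05 ± 0.212 for Gpnmb and 1.30 ± 0.228 for Atp6v0d2, with adjusted p of 0.000502, 0.000775 and 0.000407 by limma. Fabp4 had 622 and 557 normalized counts in HFD-RD, 688, 719.9 and 820.2 in HFD, and 309 and 369 in RD-RD, where HFD-RD lay between the other groups. None of the 4 was called between HFD-RD and HFD by limma at 0.05, with log2 changes of 0.28 for Ctsk, 0.10 for Gpnmb, 0.11 for Atp6v0d2 and -0.33 for Fabp4.

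The other starts that gained accessibility were few and of mixed function. Angpt2, which encodes the vessel-regulating ligand angiopoietin 2 and is the 1 start of the 47 angiogenesis genes (of whose 33 deposited regions 19 were higher and 14 lower in HFD-RD against RD-RD), had 186 and 267 normalized counts in HFD-RD, 196, 174 and 366 in HFD, and 87.2 and 89.3 in RD-RD, so that RD-RD lay below both other groups. Its log2 change was 1.33 ± 0.327 (SE, adjusted p = 0.00229 by limma) in HFD-RD and 1.38 ± 0.298 (0.00149) in HFD. Mmp19 (a matrix metalloproteinase) had 700.3 and 757 normalized counts in HFD-RD, 548, 508 and 564 in HFD, and 336 and 360.0 in RD-RD. Ap5s1, a subunit of an adaptor complex of late endosomes, had 264 and 243 normalized counts in HFD-RD, 218, 214 and 191 in HFD, and 85.9 and 124 in RD-RD. RD-RD was lowest at both, without overlap. Siglec15, a sialic acid-binding lectin, rose by 0.95 in HFD-RD and 1.04 in HFD on the log2 scale, Fabp7 (a fatty acid carrier) by 1.06 and 1.14, the chemokine gene Cxcl14 by 0.95 and 1.14, and the cadherin-related gene Fat3 by 0.81 and 0.98. The HFD-RD call of Cxcl14 was lost without HFD-RD replicate 1 (0.63). Among 5 microRNA genes 4 were higher in HFD-RD than in RD-RD, beside 8.31% of all gene starts and 64.8% of all regions. The region that holds Mir6977 had 388 and 315 normalized counts in HFD-RD, 345, 276 and 555 in HFD, and 123 and 112 in RD-RD, a log2 change of 1.56 ± 0.296 (SE). These regions are longer than a microRNA gene, so their counts are not specific to the microRNA. The uncharacterised B230216N24Rik changed by 1.43 in HFD-RD and 2.10 in HFD, the second being the largest increase over a gene start in any comparison. The calls of Mir29b-2 (1.08; 0.73 without RD-RD replicate 2) and Mir6932 (0.80; 0.42 without HFD-RD replicate 2) in HFD-RD against RD-RD were each lost without 1 library.

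**Figure D3:**
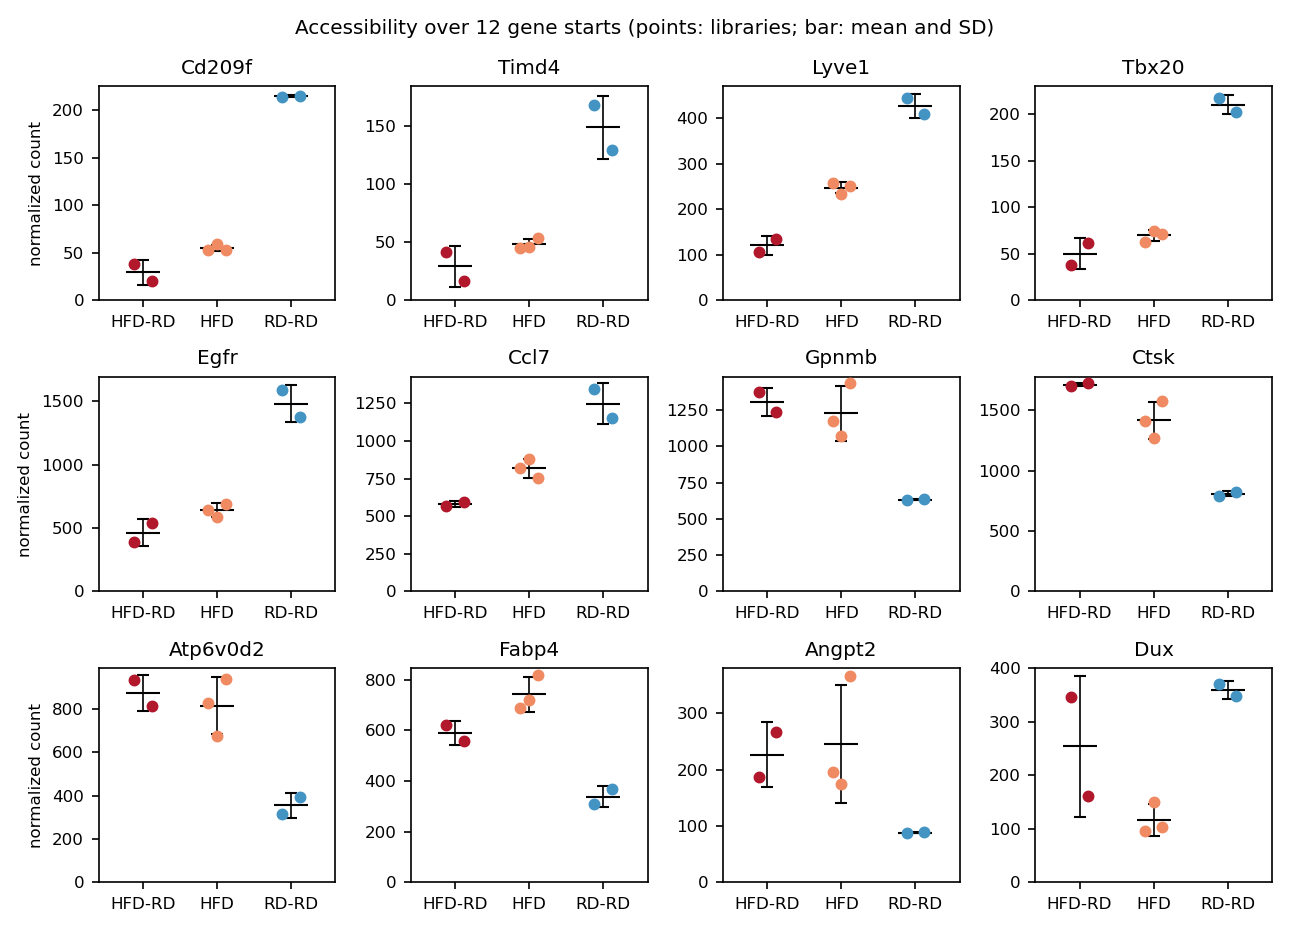
Normalized counts (y axis, linear from 0) over the starts of Cd209f, Timd4, Lyve1, Tbx20, Egfr, Ccl7, Gpnmb, Ctsk, Atp6v0d2, Fabp4, Angpt2 and Dux in the HFD-RD, HFD and RD-RD libraries (points), with group means and SD as bars. RD-RD is highest at the first 6 starts and lowest at Gpnmb to Angpt2, and the HFD-RD libraries of Dux stand far apart at 347 and 161.

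Starts of developmental transcription factor genes were all lower against RD-RD, as most gene starts were. Over all gene starts 89.7% were lower in HFD-RD and 75.1% in HFD against RD-RD, and 36.5% in HFD-RD against HFD. The list of homeobox, SOX, FOX, T-box and GATA genes had 17 gene-start regions, and all 17 were called lower in HFD-RD and in HFD against RD-RD, with median log2 changes of -1.20 and -0.79, beside medians of -1.20 and -0.75 over all gene starts. These factors pattern the embryo. Of the 81 deposited regions of the list, starts included, 63 were lower and 17 higher in HFD-RD against RD-RD. Over all regions 32.4% were lower and 64.8% higher. Tbx20, a T-box factor of heart development, had 38.3 and 62.0 normalized counts in HFD-RD, 63.2, 74.9 and 71.4 in HFD, and 218 and 203 in RD-RD at chr9:24773835-24774741. Dlx5, a distal-less homeobox factor of bone and limb, had 29.2 and 34.3 normalized counts in HFD-RD, 43.8, 62.5 and 45.6 in HFD, and 105 and 154 in RD-RD. Pax3, a paired-box factor of muscle and neural crest, had 69.3 and 87.9 normalized counts in HFD-RD, 93.0, 95.4 and 92.8 in HFD, and 240.4 and 251 in RD-RD. The RD-RD libraries were above all others at these 3 starts, by log2 changes in HFD-RD of -2.09 ± 0.244 (SE), -1.97 ± 0.255 and -1.64 ± 0.202. The Hox cluster genes on the list were among them, with changes of -1.25 for Hoxd9, -1.20 for Hoxd3, -1.16 for Hoxc13 and -1.14 for Hoxb9. With each library left out in turn, 16 of the 17 calls held in HFD-RD against RD-RD and 12 of 17 in HFD against RD-RD. Between HFD-RD and HFD 5 of the 17 were lower in HFD-RD, among them Foxc2 (-0.78, adjusted p = 0.0125 by limma) and Hoxd9 (-0.78, 0.0162), and 0 of the 5 calls held with each library left out. Without HFD replicate 1 the changes were -0.80 at Foxc2 and -0.70 at Hoxd9, neither of them called. The call of Foxc2 was also lost without HFD-RD replicate 1 (-0.77), and that of Hoxd9 without HFD-RD replicate 1 (-0.81) or 2 (-0.75).

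Growth factor and morphogen genes had 10 gene-start regions, of which 9 were lower and Angpt2 higher in both comparisons with RD-RD. This was near the share over all gene starts in HFD-RD, where 89.7% were lower, beside 75.1% in HFD. Over all regions 32.4% and 29.0% were lower. Egfr, the receptor for epidermal growth factor, had 387 and 542 normalized counts in HFD-RD, 646, 588 and 694 in HFD, and 1587 and 1381 in RD-RD at chr11:16751713-16753546. Its log2 change was -1.69 ± 0.224 (SE, adjusted p = 0.000127 by limma) in HFD-RD and -1.21 ± 0.205 (0.000466) in HFD, and RD-RD stood above both groups with no overlap. The starts of 3 genes for ligands of this receptor were lower as well, a grouping made after the values were seen: the log2 changes in HFD-RD were -1.93 for Tgfa and -1.51 for Areg. Areg had 188 and 227 normalized counts in HFD-RD, 362, 358 and 334 in HFD, and 582 and 599 in RD-RD. Btc had 494 and 389.7 normalized counts in HFD-RD, 548, 559 and 531 in HFD, and 857 and 903 in RD-RD, and was called lower in HFD-RD (adjusted p = 0.000770 by limma). RD-RD was above the other groups at both. Hhip, an inhibitor of Hedgehog ligands, changed by -1.58, Ngfr, a neurotrophin receptor, by -1.43 and Axin2, a feedback inhibitor of Wnt signalling, by -1.19. The 9 lower calls in HFD-RD held with each library left out in turn. In HFD those of Axin2 (-0.62; -0.52 without HFD replicate 1, -0.49 without RD-RD replicate 1) and Bmp2 (-0.43; -0.34 to -0.47 without HFD replicate 1, 2 or 3 or RD-RD replicate 1) did not. Fzd8, a Wnt receptor, changed by -1.29, and by -0.74 without HFD-RD replicate 2.

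Several genes of hormone signalling, also singled out after their values were seen, were among the starts with the most reads. Nr3c2, the mineralocorticoid receptor, had 1563 and 1583 normalized counts in HFD-RD, 1566, 1627 and 1639 in HFD, and 3366 and 3178 in RD-RD over a region of 4647 bp. Irs1, which relays the signal of the insulin receptor, had 450.5 and 509 normalized counts in HFD-RD, 681, 575 and 651 in HFD, and 1502 and 1341 in RD-RD. Ghr, the growth hormone receptor, had 618 and 611 normalized counts in HFD-RD, 714, 694 and 683 in HFD, and 1324 and 1214 in RD-RD. RD-RD was above HFD-RD and HFD at each, without overlap. The log2 changes in HFD-RD against RD-RD were -1.06 ± 0.190 (SE), -1.57 ± 0.202 and -1.04 ± 0.191, all called lower by limma. Of all gene starts 89.7% were lower there, with a median of -1.20, so Nr3c2 and Ghr changed less than the median start. None of the 3 was called between HFD-RD and HFD, with log2 changes of -0.03, -0.40 and -0.18.

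Of 5 cytokine and cytokine receptor starts 4 were lower and 1 higher in each of HFD-RD and HFD against RD-RD, beside 89.7% and 75.1% lower over all gene starts. Ccl7, a chemokine that draws monocytes and the 1 start of the 56 inflammatory and NF-kB genes, had 567 and 595 normalized counts in HFD-RD, 818, 881 and 752 in HFD, and 1344 and 1151 in RD-RD at chr11:82045005-82047191. Cxcl12, a chemokine that retains leukocytes and progenitors in tissue, had 512 and 605 normalized counts in HFD-RD, 849, 835 and 828 in HFD, and 1278 and 1133 in RD-RD. The 3 groups were separate at both, with HFD-RD lowest. Their log2 changes in HFD-RD against RD-RD were -1.10 ± 0.200 and -1.11 ± 0.198 (SE, adjusted p = 0.000483 and 0.000440 by limma). Bmp2, a bone morphogenetic protein, and Osmr, the oncostatin M receptor, were lower at -1.04 each, while Cxcl14 was higher. In HFD against RD-RD the call of Ccl7 (-0.61) was lost without RD-RD replicate 1 (-0.50), and that of Cxcl12 (-0.52) without HFD replicate 1 (-0.53) or RD-RD replicate 1 (-0.44). Between HFD-RD and HFD the call of Cxcl12 (-0.59) was lost without any 1 of the 5 libraries. Away from starts the inflammatory and NF-kB list moved mostly the other way: of its 29 deposited regions, that of Ccl7 included, 20 were higher and 9 lower in HFD-RD against RD-RD, beside 64.8% higher over all regions. Interferon and antigen presentation genes had 4 deposited regions, all higher in HFD-RD than in RD-RD, and signal-dependent transcription factor genes had 32, of which 27 were higher and 4 lower, with 0 of either list over a start.

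Most of the remaining gene families had more starts lower than higher in HFD-RD against RD-RD, and lysosome and vesicle trafficking genes had more higher. Of 13 cell adhesion and matrix genes 11 were lower and 2 (Fat3 and Mmp19) higher in HFD-RD against RD-RD, with the collagen gene Col5a1 at -1.28 and the neural cell adhesion gene Ncam2 at -1.48. Col16a1, another collagen gene, changed by -2.02, and by -1.30 without HFD-RD replicate 1. Of 9 solute carriers 8 were lower, led by Slc22a23 (-1.45) and the monocarboxylate transporter gene Slc16a12 (-1.44). All 7 ion channel and neurotransmitter receptor genes were lower, with Kcnd3 at -2.30 and the serotonin receptor gene Htr1b at -1.97. All 6 kinase, phosphatase and second messenger genes were lower, with the tyrosine phosphatase gene Ptpn13 at -1.91 and Cdk5r2, an activator of Cdk5, at -1.53. All 7 cytoskeleton and motor genes were lower, with the kinesin gene Kif21a at -2.23 and the formin gene Fmn1 at -1.17. All 6 zinc finger genes (Zfp37 at -1.87), 5 G protein-coupled receptors (the vomeronasal receptor Vmn2r30, of a family of close copies, at -1.28), 4 small GTPase regulators (Arhgef5 at -1.49), 3 guidance genes (Unc5a at -1.42) and 3 ubiquitin pathway genes (Kbtbd11 at -1.27) were lower too. Lipid metabolism and transport genes had 4 lower (Lrp3 at -1.72 and Cyp2j9, 1 of a set of close copies, at -1.63) and 2 higher, and lysosome and vesicle trafficking genes 2 lower and 3 higher (Ctsk, Ap5s1 and Atp6v0d2), with a median log2 change of 1.08. Predicted and RIKEN genes had 10 lower and 4 higher. The lists cover 137 of the 301 gene starts, and each share is to be read beside 89.7% lower and 8.31% higher over all of them.

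**Figure D4:**
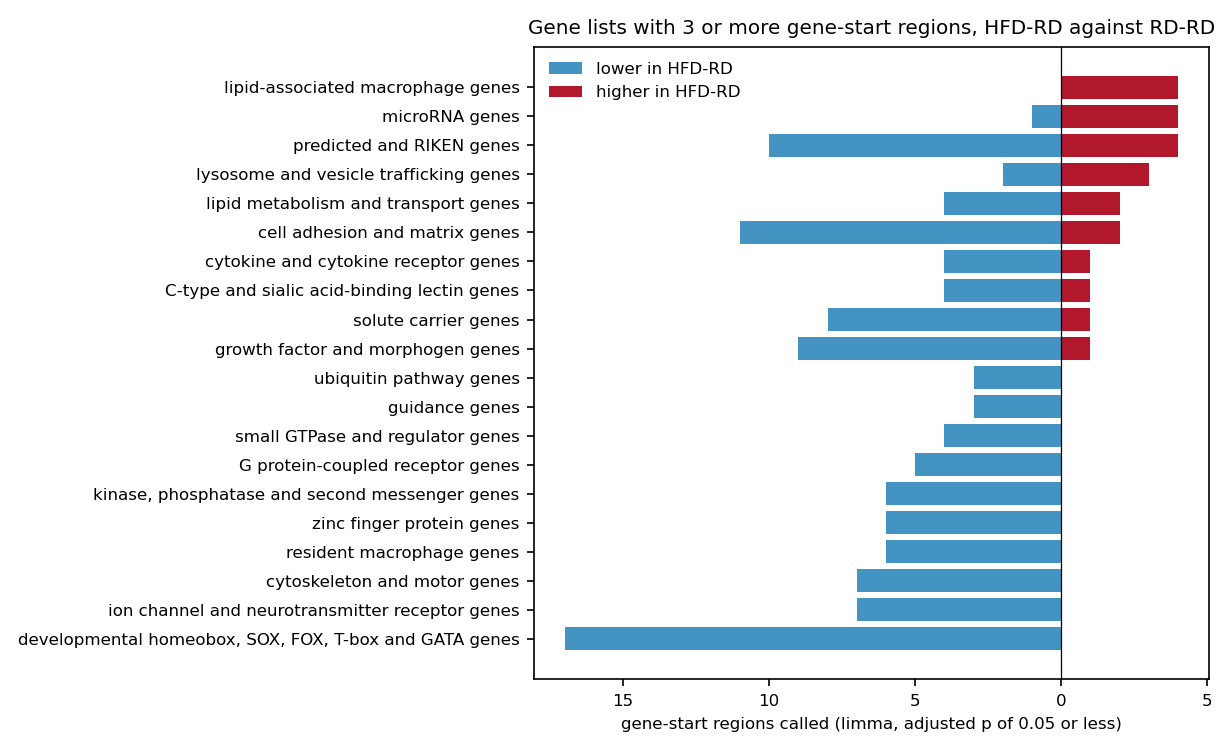
Number of gene-start regions called higher (red, right) or lower (blue, left) in HFD-RD against RD-RD by limma at an adjusted p of 0.05, for each gene list with 3 or more such regions. The lipid-associated list has 4 higher and 0 lower, the resident macrophage list 6 lower and 0 higher, and the developmental factor list 17 lower and 0 higher. Over all gene starts 89.7% were lower and 8.31% higher.

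In HFD against RD-RD the largest decreases were Steap4, Sema6a, Cd209f, Pkia and Klf15, and the largest increases B230216N24Rik, Mir6977, Angpt2, Mir6932 and Shisa9. Steap4, a metalloreductase of metabolic tissues, had 63.8 and 59.2 normalized counts in HFD-RD, 93.9, 49.4 and 75.7 in HFD, and 304 and 269 in RD-RD. Pkia, an inhibitor of protein kinase A, had 65.7 and 85.2 normalized counts in HFD-RD, 86.3, 73.2 and 80.8 in HFD, and 310.2 and 255 in RD-RD. RD-RD was highest at both, and HFD-RD and HFD overlapped. Their log2 changes in HFD against RD-RD were -2.00 ± 0.251 (SE) and -1.80 ± 0.199, with adjusted p of 0.000161 and 0.000113 by limma. Shisa9, a partner of glutamate receptors, rose by 1.23 in HFD and 0.91 in HFD-RD.

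A small group of starts was highest in HFD. Of the 12 with RD-RD between the other groups, Bsn, Coro2b and Myo18a were called lower in HFD-RD and higher in HFD, both against RD-RD. Coro2b, a coronin that binds actin, had 155 and 181 normalized counts in HFD-RD, 339.6, 326 and 453 in HFD, and 242 and 249 in RD-RD. Myo18a, an unconventional myosin, had 237 and 351 normalized counts in HFD-RD, 576, 744 and 633 in HFD, and 425 and 413 in RD-RD. HFD was above all other libraries at both, and HFD-RD below. Between HFD-RD and HFD the log2 changes were -1.13 ± 0.203 (SE, adjusted p = 0.00754 by limma) for Coro2b, -1.16 ± 0.216 (0.00797) for Myo18a and -1.21 ± 0.212 (0.00752) for Bsn, which encodes a scaffold protein of synapses. Ttc28 and Syde2 were higher in HFD than in RD-RD (0.73 and 1.02) and lower in HFD-RD than in HFD (-1.12 and -0.87), with no call in HFD-RD against RD-RD (-0.39 and 0.15). These calls leaned on single libraries. Without HFD-RD replicate 1 the changes between HFD-RD and HFD were -1.08 at Bsn, -1.02 at Coro2b, and -0.88 at both Myo18a and Ttc28, and those against RD-RD -0.49, -0.43 and -0.26 at Bsn, Coro2b and Myo18a, none of them called. Syde2 was not called between HFD-RD and HFD without HFD-RD replicate 1 (-0.63) or HFD replicate 3 (-0.80). The HFD calls against RD-RD were lost at Bsn without HFD replicate 2 or RD-RD replicate 2 (0.45 each), at Coro2b without HFD replicate 3 (0.44) or RD-RD replicate 1 (0.56), and at Myo18a without HFD replicate 2 (0.53), RD-RD replicate 1 (0.65) or RD-RD replicate 2 (0.61). Myo18a stood at -0.82 against RD-RD without HFD-RD replicate 2. The HFD-RD calls against RD-RD at Coro2b and Myo18a were also lost without either RD-RD library, and that at Bsn without RD-RD replicate 1 (-0.46).

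In HFD-RD against HFD the 5 largest decreases were Kif21a, Prima1, Kcnd3, Cd209d and Neo1. Kif21a had 32.8 and 34.3 normalized counts in HFD-RD, 98.9, 106 and 116 in HFD, and 201 and 129.6 in RD-RD, a log2 change of -1.64 ± 0.215 (SE, adjusted p = 0.00371 by limma). Neo1, which encodes the netrin and repulsive guidance receptor neogenin, had 60.2 and 72.2 normalized counts in HFD-RD, 164, 174 and 209.8 in HFD, and 233 and 203 in RD-RD, a change of -1.45 ± 0.196 (0.00371). HFD-RD was lowest and apart from HFD at both, and HFD was not called against RD-RD at Neo1 (-0.26). At Kif21a the call of HFD against RD-RD (-0.59) was lost without HFD replicate 1 (-0.53) or RD-RD replicate 1 (-0.28), and it stood at -0.90 without RD-RD replicate 2. Of the 110 lower calls, 8 held with each library left out in turn: Kif21a, Prima1, Cd209d, Neo1, P3h2, Ncam2, Scube1 and 2810459M11Rik. In HFD-RD against RD-RD 259 of 270 lower and 19 of 25 higher calls held in the same way, and in HFD against RD-RD 167 of 226 and 23 of 28.

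The 4 starts higher in HFD-RD than in HFD were Slc39a4 (a zinc importer), Dux (a double homeobox gene of the early embryo), Mefv (pyrin, an inflammasome sensor) and Gimap1 (a GTPase of lymphocytes). Dux, a gene in a tandem array of near-identical copies, had 347 and 161 normalized counts in HFD-RD, 95.7, 151 and 103 in HFD, and 371 and 348 in RD-RD. Slc39a4 had 126 and 134 normalized counts in HFD-RD, 72.7, 63.4 and 51.6 in HFD, and 58.5 and 104 in RD-RD. Mefv had 244 and 145 normalized counts in HFD-RD, 104, 132 and 86.0 in HFD, and 103 and 87.8 in RD-RD. HFD-RD lay above HFD at all 4 starts without overlap, and the HFD-RD replicates of Dux and Mefv were far apart. The log2 changes were 1.06 ± 0.252 (SE), 1.04 ± 0.305, 0.83 ± 0.257 and 0.67 ± 0.187 for Gimap1, with adjusted p of 0.0157, 0.0331, 0.0402 and 0.0283 by limma. Each of the 4 calls was lost without at least 1 library, and without HFD-RD replicate 1 the changes were 1.10, 0.49, 0.46 and 0.63. Dux and Gimap1 were lower in HFD than in RD-RD (-1.64 and -1.44). Against RD-RD, Mefv in HFD-RD (0.98) lost its call without HFD-RD replicate 1 (0.60), and Slc39a4 (0.73) without HFD-RD replicate 1 (0.78), HFD-RD replicate 2 (0.68) or RD-RD replicate 1 (0.32), and it stood at 1.14 without RD-RD replicate 2.

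Markers of other cell types seldom had a region over their start. Of 15 B cell markers, Ebf1 (a B cell lineage factor that stromal cells also use) and Cr2 (a complement receptor) did, and both were lower in HFD-RD and HFD than in RD-RD. The shares of all gene starts that were lower were 89.7% in HFD-RD and 75.1% in HFD. Ebf1 had 144 and 106 normalized counts in HFD-RD, 129.6, 127 and 127 in HFD, and 315 and 253 in RD-RD. Cr2 had 76.6 and 49.1 normalized counts in HFD-RD, 54.2, 47.7 and 37.8 in HFD, and 88.4 and 118 in RD-RD, and its call in HFD-RD against RD-RD (-0.73) was lost without HFD-RD replicate 2 (-0.41) or RD-RD replicate 2 (-0.52). Of the 15 markers 6 have any deposited region, and their 9 regions summed to 660.2 to 666 normalized counts in HFD-RD, 769 to 829 in HFD and 1099 to 1177 in RD-RD. Of these regions 8 were lower and 1 higher in HFD-RD against RD-RD, beside 32.4% and 64.8% over all regions. Hp (haptoglobin), the 1 monocyte marker of 8 with a region, had 144 and 71.3 normalized counts in HFD-RD, 39.7, 82.3 and 57.6 in HFD, and 47.3 and 53.3 in RD-RD, and its call in HFD-RD against RD-RD (1.00) was lost without HFD-RD replicate 1 (0.50) or RD-RD replicate 1 (0.92). Markers of neutrophils, T cells, NK cells, mast cells and eosinophils, adipocytes, endothelial cells and fibroblasts had 0 regions over a start, and those of NK cells, mast cells and eosinophils, and adipocytes had 0 deposited regions. Away from starts, 4 of these lists had deposited regions. The 2 regions of neutrophil markers, both lower in HFD-RD and HFD than in RD-RD, summed to 171 to 223 normalized counts in HFD-RD, 253 to 281 in HFD and 429 to 471 in RD-RD. The 3 regions of fibroblast and mesothelial markers summed to 823 to 916 in HFD-RD, 699.8 to 840.1 in HFD and 1276 to 1416 in RD-RD, with 1 lower and 2 higher in HFD-RD against RD-RD. The 10 regions of T cell markers summed to 2562 to 2799.6 normalized counts in HFD-RD, 2560.5 to 2768 in HFD and 1822 to 1951 in RD-RD, with 6 higher and 4 lower in HFD-RD against RD-RD. The 14 regions of endothelial markers summed to 2933 to 2945 in HFD-RD, 2602 to 2862 in HFD and 2209 to 2249.6 in RD-RD, with 9 higher and 5 lower. The RD-RD sums lay outside the range of the other groups for all 4 lists. The part of these cell types in the changes over gene starts was not tested.

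Other regions assigned to the same gene mostly shared the direction of its start. Of the 301 genes 114 had further deposited regions. For the 98 of these with a start called lower in HFD-RD against RD-RD, 170 of 181 other regions were lower and 10 higher, and for the 12 with a start called higher, 31 of 32 were higher and 0 lower. Over all deposited regions 32.4% were lower and 64.8% higher. These other regions were also chosen by the authors for a difference between these libraries, so only their direction is described. All 9 other regions of Celf4, all 7 of P3h2 and all 6 of Fgf9 were lower like their starts, and all 5 of Gpnmb and all 4 of Angpt2 were higher like theirs. At 5 genes the start was lower and every other region higher. These were Fmn1 (an actin-nucleating formin), 2810459M11Rik, Bsn, Fa2h (a fatty acid hydroxylase) and Syt2 (a synaptotagmin): all 3 other regions of Fmn1 (log2 changes 1.10 to 1.31) and both of 2810459M11Rik (1.08 and 1.15) were higher, as was the 1 other region of Bsn (1.69), Fa2h (1.37) and Syt2 (1.30).

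Levels per length set the starts against each other within a group. The median was 112 normalized counts per kb in HFD-RD, 153 in HFD and 248 in RD-RD. The highest start per kb was Ctsk in HFD-RD (550.1), followed by Gpnmb (512) and Zcchc14 (496). In HFD it was Zcchc14 (748), and in RD-RD Garem1 (1128), Cyp46a1 (1049) and Zcchc14 (1020.3), with Ctsk and Gpnmb in none of the top 5 places there. Gene-start regions were wider than the whole set, with a median of 1125 bp against 730.0 bp, and reached a median of 421 bp upstream and 636 bp downstream of the start.

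CG content, which the choice of regions did not use, was on median higher in the starts that fell than in the few that rose, a difference given here as a description with no test. A window counted as CpG-rich with an observed over expected CG ratio of at least 0.6 and a GC content of at least 50%. This class was set after the data were seen. In HFD-RD against RD-RD, 65.6% of the 186 windows of lower starts and 22.2% of the 9 of higher starts were CpG-rich. Over all 200 gene-start windows the share was 64.0%, close to that of the lower ones, and over all 32851 windows 33.5%. With 16 of the 25 higher starts and 84 of the 270 lower ones having no window, most higher starts are left out of this contrast. The median ratio was 0.703 in the lower windows, 0.369 in the higher ones and 0.384 in all windows. Of the 128 CpG-rich starts 122 were lower and 2 higher, and of the 72 CpG-poor starts 64 were lower and 7 higher. Between HFD-RD and HFD 65 of 128 CpG-rich starts were lower and 0 higher, and of 72 CpG-poor starts 17 were lower and 2 higher. Of the 101 starts without a window 28 were lower and 2 higher there, beside 36.5% lower over all gene starts and 12.8% over all regions. As described above, the calls of this comparison leaned on single libraries. Open regions in CpG-rich starts were also wider, with a median of 1262 bp against 980.0 bp in CpG-poor ones, so width and CG content moved together. The GC box letters GGGCGGGG occurred in 68 of 186 lower windows (36.6%) and 0 of 9 higher ones, and the CTCF core letters AGGGGGC in 21.5% of lower windows against 10.6% of all windows. The AP-1 letters TGANTCA occurred in 3.23% of lower windows and in 2 of 9 higher windows (Gpnmb and B230216N24Rik). The letters of the GC box are themselves CG-rich, so its share and the CG content of the windows cannot be told apart. With 9 higher windows, shares among them move by 11.1% with a single window.

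**Figure D5:**
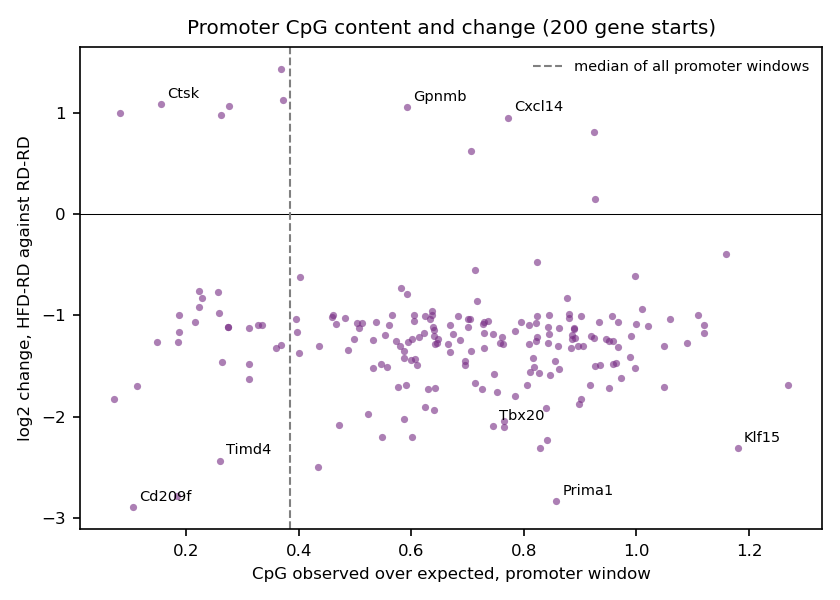
Observed over expected CG ratio of the promoter window (x axis) against the log2 change in HFD-RD against RD-RD (y axis) for the 200 gene starts with a RefSeq window. The labelled genes are Cd209f, Timd4, Prima1, Klf15, Tbx20, Gpnmb, Ctsk and Cxcl14. The dashed line marks the median of all 32851 windows (0.384). Lower starts span the whole range of the ratio and are denser to the right of the line, and Cd209f, Timd4 and Ctsk lie to its left.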

How the data were processed

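Nuclei of sorted adipose tissue macrophages from 7 libraries were analysed. The deposited tables give a signal per region, the authors' normalized counts, which equal read counts divided by 1 size factor per library: within a tolerance of 1e-06, 100.0% of values were whole multiples of 1 step, so that 0.548 and 1.08 were the divisors of the HFD-RD libraries, 2.21, 1.22 and 1.16 those of HFD, and 0.803 and 0.694 those of RD-RD. The lowest values came to 4 to 37 reads by library, so the step was taken from differences between values and could not be checked on values of 1 or a few reads in every library; the printed reads and divisors rest on it. They also hold the authors' log2 fold change and its standard error, the authors' score (a test statistic) and their deposited p-value with its adjusted form, none of which is printed here. Every region passed an adjusted p of at most 0.05 and an absolute log2 fold change of at least 1 by the authors in the comparison their table reports. Per the submitters' processing notes, Picard, deepTools, MACS2 2.0.10, DESeq2 and the build GRCm38 were used, in roles not given there. Which aligner was used, and how reads mapping to several places were treated, is not given in the sources used here. The number of libraries and the reads per region limit the precision, and intervals cover the spread between libraries only.

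The 7 tables were stacked, and rows were kept by place and chromosome. limma 3.58.1 in R 4.3.3 was fitted to log2(normalized count + 1) over all 5898 regions with the 3 groups in 1 fit (residual degrees of freedom 4, prior 7.2) and Benjamini–Hochberg adjustment over 5898 regions at 0.05. A minimum mean of 10 normalized counts removed 0 gene-start regions, so all 301 were tested. A fold change is on the log2(normalized count + 1) scale and understates changes at low counts. The ± of a log2 change is limma's SE. The procedure was tested on simulated data. Identifiers of 300 of 301 genes matched the RefSeq gene table of GRCm38.p6, 297 with the same symbol (282 protein coding, 10 lncRNA, 6 miRNA and 2 transcribed pseudogenes). Open regions that the 7 tables do not list were not analysed here.

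The gene-start set, the gene lists and the motifs were chosen with earlier results of these data known. Named genes are the 10 largest changes each way in HFD-RD against RD-RD, the 5 largest each way in the other comparisons, genes of the macrophage and marker lists and the 2 largest changes of each family; others are given as examples. The alternatives were other pseudocounts (0.5 and 8), no filter and a minimum mean of 50, 2 scalings to equal totals, a minimum absolute log2 change of 1, a replicate block and leaving out each library. Replicate numbers did not pair the libraries: deviations from the group means of same-numbered libraries correlated at -0.0716 to 0.0628 across regions.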

Additional observations from a re-analysis of the deposited data

How the results depend on the processing

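The counts over gene starts, 25 higher and 270 lower for HFD-RD and 28 and 226 for HFD against RD-RD, stayed within 1.5 times under every alternative run except a minimum absolute log2 change of 1, which left 16 higher in HFD-RD against RD-RD, 14 higher and 91 lower in HFD against RD-RD, and 2 higher and 34 lower in HFD-RD against HFD. Leaving out 1 library gave 22 to 25 higher and 265 to 270 lower in HFD-RD against RD-RD, 25 to 28 higher and 183 to 229 lower in HFD against RD-RD, and 0 to 6 higher and 12 to 126 lower in HFD-RD against HFD. In that last comparison scaling to equal totals gave 2 higher and 187 lower. This scaling moved the median of all regions by -0.208 there, by -0.191 in HFD-RD against RD-RD and by 0.0172 in HFD against RD-RD; leaving the largest region out of the totals moved it by -0.113, -0.234 and -0.122. The replicate block, with numbers that do not pair the libraries, gave 0 higher and 35 lower in HFD-RD against HFD, 25 and 269 for HFD-RD against RD-RD, and 26 and 213 for HFD against RD-RD. No region that the rule picks changed sign where it was called. Of the regions that the naming rule picks 6 lost a call under some alternative in HFD-RD against RD-RD, 10 in HFD against RD-RD and 24 in HFD-RD against HFD. Over all gene starts 17, 64 and 106 calls were lost without at least 1 library in these comparisons. The cause was not tested. The planned count-based tests on recovered reads were not run, because the step behind those reads did not pass a check on the lowest values of the tables.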

Other observations

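The X chromosome, left out of the gene starts above, holds 13 more regions over a gene start. All 13 were lower in HFD-RD and 12 in HFD against RD-RD, and 4 were lower in HFD-RD against HFD, by limma over all regions. In the same order, 89.7%, 75.1% and 36.5% of the autosomal gene starts were lower, and 32.4%, 29.0% and 12.8% of all regions. Klhl13, a substrate adaptor of a ubiquitin ligase, had 45.6 and 46.3 normalized counts in HFD-RD, 65.5, 68.3 and 78.2 in HFD, and 455 and 377 in RD-RD, and its log2 change of -3.14 ± 0.204 (SE, adjusted p = 8.92e-06) in HFD-RD against RD-RD was larger than that of any autosomal start. Tspan7, a tetraspanin, had 21.9 and 34.3 normalized counts in HFD-RD, 68.6, 74.1 and 68.8 in HFD, and 151 and 112 in RD-RD. RD-RD was highest at both with no overlap between groups.

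The 7 tables differed in how many gene starts they hold. The table whose deposited fold change matches HFD-RD against HFD held 9 of them in 75 regions, while the largest table, of 2689 regions, held 169 (6.28%) and a table of 50 regions held 0.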
